A study of Mus musculus with 24 samples.

Results

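The genes studied here are ones that the transcription factor p53 is known to activate, 10 of the 24421 genes in the count table, measured in mouse liver. They were taken by gene symbol: Trp53inp1, Mdm2, Ccng1, Phlda3, Eda2r, Zmat3, Aen, Perp, Plk2 and Plk3. The mice were of strain C57BL/6, and RNA came from the medial liver lobe. Liver was taken from one pair of groups 1 h after an injection, which held either 5 mg/kg MitoCDNB or only the vehicle (0.1% ethanol), and from the other pair 4 h after the same injections. Each of the 4 groups had 6 mice with 1 library each. The labels give no age, sex or genetic change. MitoCDNB is chlorodinitrobenzene, which reacts with thiols, joined to a triphenylphosphonium cation that carries it into mitochondria.

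p53, encoded by Trp53, is held at a low level in unstressed cells because Mdm2 marks it for degradation. Damage or stress stabilises the protein, which then binds paired copies of a short DNA motif and raises transcription of genes for growth arrest, repair, metabolism and cell death. Several of these genes, Plk2 and Plk3 among them, are also induced by growth factor and stress pathways that do not need p53.

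The promoters of the genes are shown first because p53 acts through such sites. A table of RefSeq promoter windows (build GRCm38.p6) matched 7 of the 10 genes, and the 250 bases upstream of the start were searched on both strands. Trp53inp1, Zmat3 and Perp had no entry. The p53 half-site, a motif of 10 bases, was found in the windows of Mdm2, Ccng1 and Aen and in 7.13% of all 32851 windows. A full site of 20 bases, with at most 1 base outside the consensus and the central C and G of both repeats kept, was found upstream of Ccng1 and in 0.0578% of all windows, which is 19 windows. The Ccng1 stretch lies at chr11:40755312-40755536 on the minus strand, and its capitals mark the full site, which begins 195 bases upstream of the RefSeq start. The Aen stretch lies at chr7:78895927-78895956 on the plus strand, within an exon annotated by GENCODE, and its capitals mark a half-site that begins 121 bases upstream of the RefSeq start. The Mdm2 stretch lies at chr10:117710759-117711008 on the minus strand, and its capitals mark a half-site that begins 186 bases upstream. Each match is a description of letters and not a measured binding site. Introns and bases further upstream were not searched, so a gene without a match here may hold a site elsewhere.
Ccng1: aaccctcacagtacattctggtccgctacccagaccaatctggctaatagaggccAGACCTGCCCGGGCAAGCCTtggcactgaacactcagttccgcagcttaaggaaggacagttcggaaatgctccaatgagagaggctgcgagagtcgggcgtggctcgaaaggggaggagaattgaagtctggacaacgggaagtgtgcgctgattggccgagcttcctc
Aen: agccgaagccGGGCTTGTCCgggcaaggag
Mdm2: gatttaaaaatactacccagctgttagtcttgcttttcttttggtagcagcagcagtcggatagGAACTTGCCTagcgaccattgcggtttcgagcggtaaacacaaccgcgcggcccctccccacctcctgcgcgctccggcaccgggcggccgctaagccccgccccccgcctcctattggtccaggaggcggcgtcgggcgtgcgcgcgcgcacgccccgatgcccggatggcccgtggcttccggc

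The Plk3 promoter is shown for another motif, the core of the cAMP response element, TGACG, which CREB and ATF factors bind. TGACG or its reverse complement was found in 17.8% of all windows, and among the 7 genes in those of Plk2 and Plk3. The Plk3 stretch at chr4:117133964-117134213 on the minus strand holds 2 copies, in capitals. The Plk2 window holds the whole palindrome TGACGTCA, as do 1.55% of all windows. The AP-1 motif TGANTCA was found in 6.75% of all windows and in none of the 7. The E-box CACGTG was found in 6.02% of windows and in that of Aen, and the FOXO motif TGTTTAC in 3.17% of windows and in those of Mdm2 and Eda2r.
Plk3: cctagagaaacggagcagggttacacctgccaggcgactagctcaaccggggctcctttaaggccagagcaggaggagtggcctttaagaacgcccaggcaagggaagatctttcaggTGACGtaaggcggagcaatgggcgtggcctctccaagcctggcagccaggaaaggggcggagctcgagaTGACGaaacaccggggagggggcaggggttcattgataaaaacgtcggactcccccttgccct

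Libraries held between 25132737 and 37231025 counts, and all 10 genes were among the 13833 with enough counts to be tested. Markers of hepatocytes (4 genes) summed to between 32700 and 54400 CPM (counts scaled to library size) in the 24 libraries, and none was at 0. In a principal component analysis of all tested genes, 4 h vehicle replicate 1 and 4 h MitoCDNB replicate 2 stood apart on the second component, at -28.7 and -37.2, where the other 4 h libraries lay between -13.7 and 23.5. Levels of brain cell transcripts differed among the 1 h libraries. Summed over 5 neuron and glia markers, the level was 5.33 to 9.54 CPM in replicates 1 to 3 of both 1 h groups and 8.99 to 12.8 CPM in replicates 4 to 6, so the sums overlapped. The neuronal marker Snap25 had no count in 1 h replicates 1 to 3 or in any 4 h library, and had counts in 1 h replicates 4 to 6. The 1 h calls are therefore also given within replicates 1 to 3 and 4 to 6, and the 4 h values without the libraries that stood apart where these moved them. Because liver tissue was sequenced in bulk, fewer cells of a type and less RNA per cell cannot be told apart.

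In vehicle livers at 1 h the order of levels was set per kilobase of merged exon (RPKM), so that genes could be compared. By mean, Plk3 (25.5 ± 21.9, SD, n = 6) and Perp (24.2 ± 3.12) were highest and did not differ beyond their spread. The Plk3 mean was raised by replicates 1 and 2, at 133 and 139 CPM, against 23.9 to 32.5 CPM in replicates 3 to 6. Its SD also reached the means of Trp53inp1, Ccng1 and Mdm2, so the rank of Plk3 among these genes was not settled. Trp53inp1 followed by mean at 11.6 ± 4.56 RPKM. Ccng1 at 5.17 ± 0.49 and Mdm2 at 3.86 ± 0.339 RPKM came next. Aen (1.85 ± 0.10) and Plk2 (1.54 ± 0.427) lay within each other's spread, as did Zmat3 (0.565 ± 0.0701) and Phlda3 (0.561 ± 0.195). Eda2r was lowest at 0.082 ± 0.0225 RPKM. By the GENCODE annotation of GRCm38, the build also called mm10, Trp53inp1 lies at chr4:11156431-11174379 on the plus strand with 5 merged exons, and Plk3 on the same chromosome at chr4:117128655-117133963 on the minus strand with 14. Zmat3 lies at chr3:32334792-32366014 (minus strand, 6 merged exons), Aen at chr7:78895854-78911209 (plus strand, 7) and Ccng1 at chr11:40748552-40755311 (minus strand, 6). Spread also differed between genes: in this group the SD was 5.42% of the mean for Aen and 85.9% for Plk3.

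**Figure D1:**
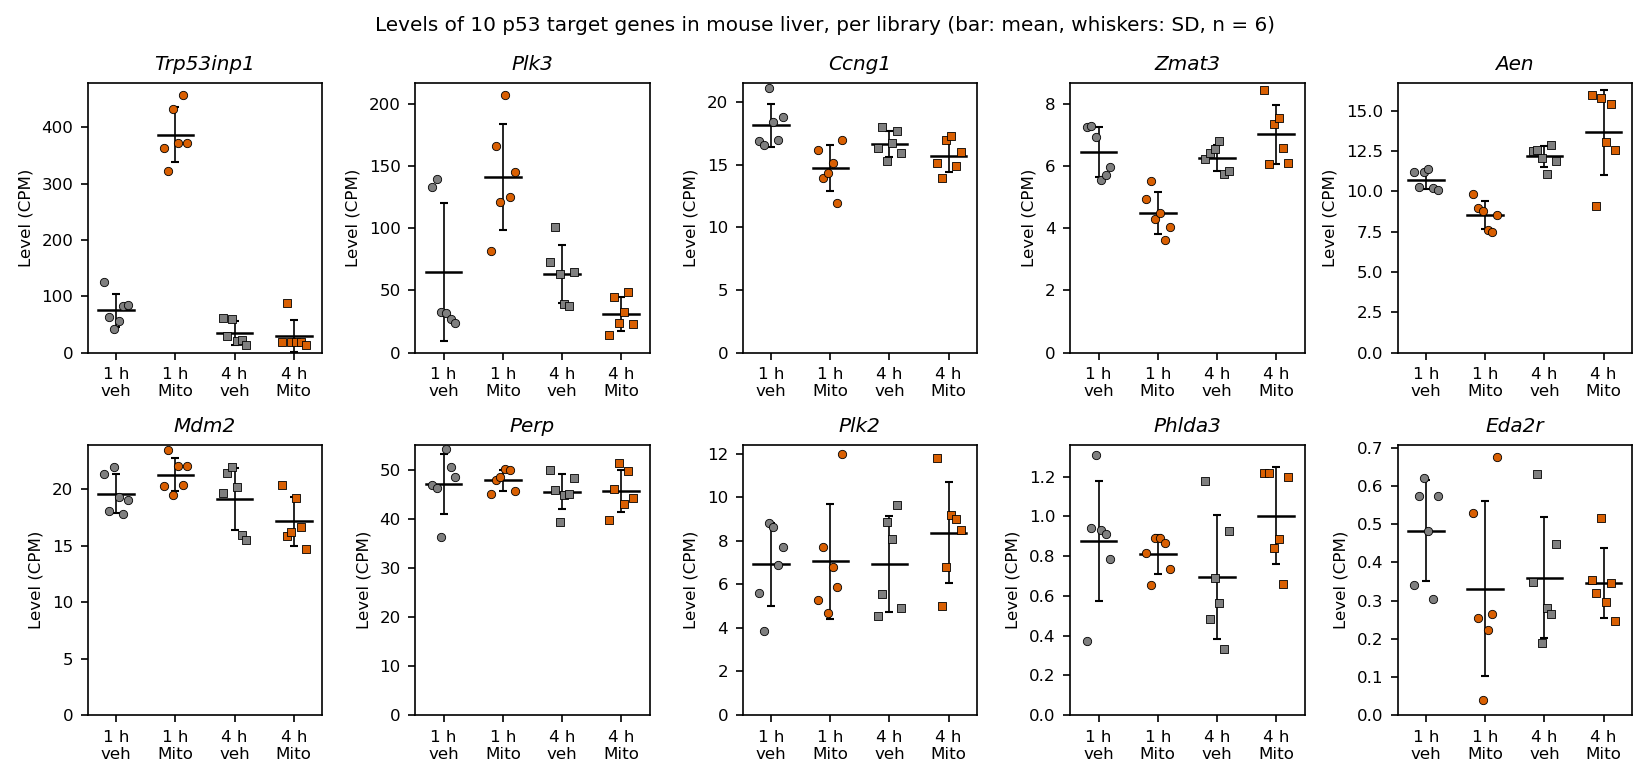
Level in CPM (y axis, linear, from 0) of each of the 10 p53 target genes in the 6 libraries of each group (x axis; veh, vehicle; Mito, MitoCDNB; grey, vehicle; orange, MitoCDNB), with the mean as a bar and the SD as whiskers; points within a group are in replicate order. Trp53inp1 lay between 322 and 457 CPM in all 1 h MitoCDNB libraries and at or below 125 CPM in every other library, whereas Perp lay between 36.3 and 54.3 CPM throughout.

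At 1 h, 1 of the 10 genes was higher with MitoCDNB (Trp53inp1, 5.14-fold) and 3 were lower (Zmat3, Aen and Ccng1, by 18.9% to 30.5%), so the genes did not move as a group. Over all tested genes, 2.7% were called higher and 3.87% lower. The test was edgeR's quasi-likelihood F test with Benjamini-Hochberg adjustment over all tested genes. Genes with an adjusted p under 0.05 are named as called. The median log2 fold change of the 10 genes was -0.04, against 0.00 for all tested genes, and their median absolute log2 fold change was 0.316, against 0.116.

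Trp53inp1 encodes a nuclear and autophagy protein that promotes p53 activity. It ranged from 40.9 to 125 CPM in 1 h vehicle livers (median 72.9) and from 322 to 457 CPM with MitoCDNB (median 373). Every treated library was above every vehicle library. The log2 fold change was 2.36 ± 0.448 (SE; 95% interval 1.43 to 3.29; adjusted p = 0.00186, edgeR). Within replicates 1 to 3 the log2 fold change was 2.28 (adjusted p = 0.108), and replicates 4 to 6 gave 2.44 (adjusted p = 0.000208), with 3 libraries a group.

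Mdm2, the ubiquitin ligase that limits p53 in a feedback loop, lay between 17.8 and 22 CPM with vehicle (median 19.2) and between 19.5 and 23.5 CPM with MitoCDNB (median 21.2). The groups overlapped, and the log2 difference of 0.12 (95% interval -0.07 to 0.31; adjusted p = 0.564, edgeR) did not pass the test. Ccng1, the cyclin G1 gene, whose protein recruits a phosphatase to Mdm2, ranged from 16.6 to 21.1 CPM with vehicle (median 17.7) and from 11.9 to 17 CPM with MitoCDNB (median 14.7). The ranges met at their ends, but all 6 treated libraries were below the vehicle mean. Ccng1 fell by 0.30 ± 0.0791 on the log2 scale (adjusted p = 0.0191, edgeR). The call was lost without 1 h vehicle replicate 3 (adjusted p = 0.0588), without 1 h MitoCDNB replicate 5 (0.0536), and within either set of 3 replicates (0.234 and 0.233), where the log2 values were -0.30 and -0.31.

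Zmat3 encodes a zinc-finger protein that binds RNA. It ranged from 5.54 to 7.30 CPM with vehicle (median 6.46) and from 3.63 to 5.51 CPM with MitoCDNB (median 4.40), with no overlap. The log2 fold change was -0.53 ± 0.106 (adjusted p = 0.00208, edgeR). Within replicates 1 to 3 and 4 to 6 the log2 values were -0.54 and -0.50 (adjusted p = 0.0654 and 0.0799).

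Aen, an exonuclease gene linked to apoptosis, ranged from 10.1 to 11.4 CPM with vehicle (median 10.7) and from 7.49 to 9.86 CPM with MitoCDNB (median 8.65), again with no overlap. The log2 fold change was -0.33 ± 0.101 (adjusted p = 0.048, edgeR), close to the threshold. Leaving out any 1 of 11 of the 12 libraries ended the call, with adjusted p between 0.0577 and 0.118. The exception was 1 h MitoCDNB replicate 1 (0.0318). With the replicate block the adjusted p was 0.0593, without a count filter it was 0.0547, and within replicates 1 to 3 and 4 to 6 it was 0.293 and 0.0571.

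The other genes of the death-related group did not pass the test at 1 h. Perp, which encodes a membrane protein of cell junctions and apoptosis, had a log2 difference of 0.02 with a narrow 95% interval, from -0.14 to 0.18. Phlda3, an inhibitor of Akt signalling, and Eda2r, a receptor of the tumour necrosis factor family, were thinly counted: Phlda3 had 10 to 39 counts a library over the study and Eda2r 1 to 23. Their log2 differences at 1 h were -0.11 (95% interval -0.66 to 0.43) and -0.50 (-1.24 to 0.25), and neither passed the test.

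The polo-like kinase genes Plk2 and Plk3 differed in level and in spread. Plk2 ranged from 3.85 to 8.81 CPM with vehicle (median 7.31) and from 4.67 to 12 CPM with MitoCDNB (median 6.35), a log2 difference of 0.04 (95% interval -0.48 to 0.55; adjusted p = 0.972, edgeR). Plk3, a kinase of stress and immediate early responses, was at 81.9 to 207 CPM in the 6 MitoCDNB libraries (median 135). In vehicle livers it was at 133 and 139 CPM in replicates 1 and 2 and between 23.9 and 32.5 CPM in replicates 3 to 6. The groups therefore overlapped through those libraries, and the log2 fold change of 1.13 ± 0.442 did not pass the test (adjusted p = 0.161, edgeR). Without 1 h vehicle replicate 2 the log2 value was 1.51 (adjusted p = 0.0497). Replicates 4 to 6 alone gave 2.53 (adjusted p = 0.00275), and replicates 1 to 3 alone gave 0.28 (adjusted p = 0.884). limma-voom with quality weights called it, at a log2 value of 1.69 (adjusted p = 0.0111). Plk3 exons overlap those of Tctex1d4 on the opposite strand by 84 bases (3.3% of the Plk3 exon length). Since the strand setting of the counting is not given in the sources used here, reads there cannot be assigned to 1 strand, but Tctex1d4 had 832 counts over the study, against 53561 for Plk3.

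**Figure D2:**
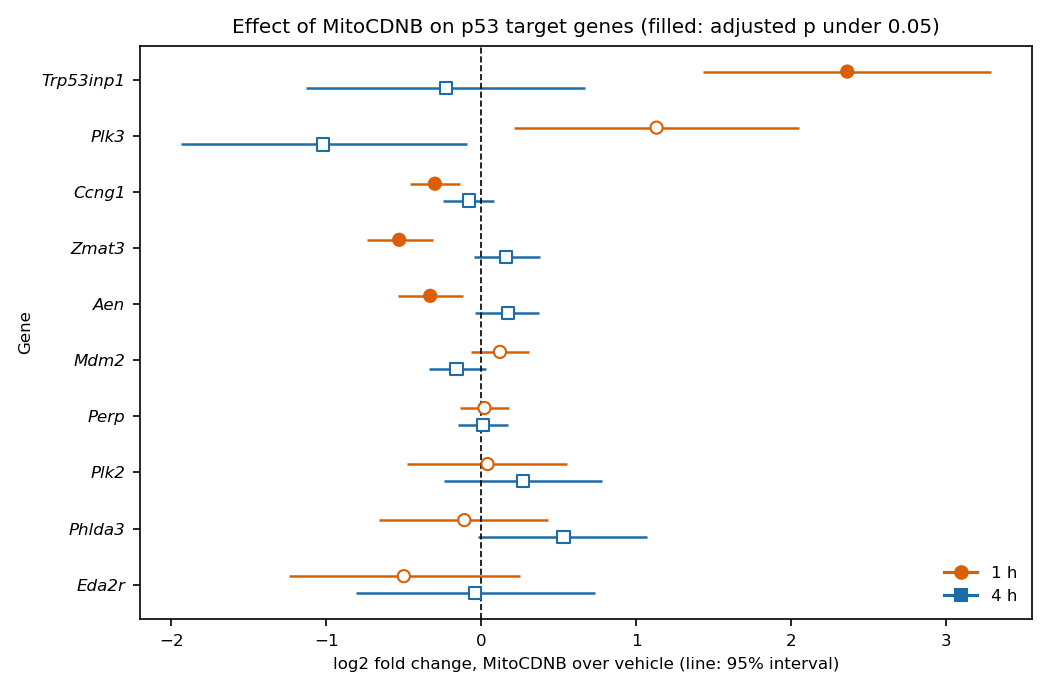
Log2 fold change of MitoCDNB over vehicle (x axis) for each of the 10 genes (y axis) at 1 h (orange circles) and 4 h (blue squares), with 95% intervals as lines and filled symbols for genes called at an adjusted p under 0.05. The 4 filled symbols are all at 1 h: Trp53inp1 at 2.36, and Ccng1, Zmat3 and Aen between -0.30 and -0.53.

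At 4 h, edgeR called 0 of the 10 genes, as did DESeq2 and limma-voom. Over all tested genes 0.824% were called by edgeR in either direction. At an unadjusted p under 0.05 there was 1 gene, Plk3, and the share of all tested genes under that cut was not computed. The median log2 fold change of the 10 genes was -0.02, against 0.00 for all tested genes. Leaving out any single 4 h library, or both that stood apart, also gave 0 calls among the 10.

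Trp53inp1 lay between 13.2 and 60.5 CPM with vehicle at 4 h (median 26.5). With MitoCDNB it was between 14.2 and 19.3 CPM in 5 libraries and at 87.1 CPM in replicate 2, one of the libraries that stood apart. The log2 difference was -0.23 (95% interval -1.13 to 0.67; adjusted p = 0.868, edgeR), and without both libraries that stood apart it was -0.72 (adjusted p = 0.287). Plk3 ranged from 37.4 to 101 CPM with vehicle (median 63.9) and from 14.4 to 48.6 CPM with MitoCDNB (median 27.9). All 6 treated libraries were below the vehicle mean, but the ranges overlapped, and the log2 difference of -1.02 ± 0.444 had an adjusted p of 0.289 (edgeR). Zmat3 was at 5.73 to 6.80 CPM with vehicle and 6.07 to 8.45 CPM with MitoCDNB. Aen was at 11.1 to 12.9 CPM with vehicle. With MitoCDNB it was at 9.11 CPM in replicate 2 and at 12.6 to 16 CPM in the other 5 libraries. Ccng1, Mdm2, Perp, Plk2, Phlda3 and Eda2r had log2 differences between -0.16 and 0.53 at 4 h, and the ranges of their groups overlapped.

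Whether the effect of MitoCDNB differed between the times was tested as an interaction, the log2 effect at 4 h minus that at 1 h. It was called for 3 of the 10 genes: 2 higher (Zmat3 and Aen) and 1 lower (Trp53inp1). Over all tested genes 2.38% were called higher and 1.69% lower. For Trp53inp1 the difference was -2.59 ± 0.617 (adjusted p = 0.0184, edgeR), from 2.36 at 1 h to -0.23 at 4 h. It was -3.31 (adjusted p = 0.000166) without 4 h MitoCDNB replicate 2. For Zmat3 it was 0.69 ± 0.148 (adjusted p = 0.00652), from -0.53 to 0.16. Aen had a difference of 0.50 ± 0.141 (adjusted p = 0.0444), from -0.33 to 0.17. The Aen call held in 4 of the 24 fits that left out 1 library, namely without 1 h MitoCDNB replicate 1, 4 h vehicle replicate 1, or 4 h MitoCDNB replicates 2 or 6 (adjusted p over the 24 fits from 0.00137 to 0.0898), and with the replicate block it was lost (0.0702). Plk3 had log2 values on opposite sides of 0, 1.13 at 1 h and -1.02 at 4 h, with a difference of -2.15 ± 0.627 that missed the threshold (adjusted p = 0.0592, edgeR). It passed with DESeq2 (0.0181), with limma-voom (0.00853), without robust estimation (0.0334), with a term for 1 h replicates 4 to 6 (0.0317), and without 1 h vehicle replicate 1 (0.022), 1 h vehicle replicate 2 (0.0204) or 4 h MitoCDNB replicate 2 (0.0494).

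The times were also compared within each treatment, where time since injection, time of day and library order cannot be told apart. In MitoCDNB livers 5 of the 10 genes differed between 4 h and 1 h: Zmat3 and Aen were higher at 4 h, and Trp53inp1, Plk3 and Mdm2 were lower. Over all tested genes 15.1% were called higher and 13.4% lower. Trp53inp1 fell by 3.72 ± 0.476 on the log2 scale, 13.1-fold (adjusted p = 7.73e-06, edgeR), and Plk3 fell by 2.18 ± 0.457 (adjusted p = 0.00116), both with no overlap between the times. Without 4 h MitoCDNB replicate 2, the library at 87.1 CPM, the fall of Trp53inp1 was larger, with a log2 value of -4.44 (adjusted p = 5.6e-08). Zmat3 rose by 0.64 ± 0.105 and Aen by 0.68 ± 0.101. Mdm2 fell by 0.31 ± 0.0911 (adjusted p = 0.0115). Every single omission kept these 5 calls. The 3 neutrophil markers also differed between these groups, from 6.79 to 10.7 CPM in sum at 1 h to 0.501 to 1.70 CPM at 4 h with no overlap, and their part in the differences between the times was not tested.

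In vehicle livers edgeR called 0 of the 10 genes between 4 h and 1 h, where 5.44% of all tested genes were called in either direction. At an unadjusted p under 0.05 there was 1 gene, Trp53inp1, with a log2 difference of -1.12 ± 0.435 (adjusted p = 0.145, edgeR). The share of all tested genes under that cut was not computed. DESeq2 called 0 and limma-voom called 1, Trp53inp1 (-1.15, adjusted p = 0.0398). It was also called without both 4 h libraries that stood apart (-1.36, adjusted p = 0.0116). Plk3, with a log2 difference of -0.04, had a 95% interval from -0.95 to 0.88.

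Genes that act on p53 were read from a list of 31, of which 27 were tested. At 1 h 3 rose, 2 fell and 22 did not pass the test, with a median log2 fold change of -0.01 against 0.00 for all tested genes. The shares over all tested genes were 2.7% higher and 3.87% lower. Trp53 itself ranged from 12 to 14.6 CPM with vehicle and from 8.77 to 11.2 CPM with MitoCDNB, with no overlap, and fell by 0.37 ± 0.0911 on the log2 scale (adjusted p = 0.012, edgeR). The Trp53 call was lost with 3 libraries a group, at log2 values of -0.35 within replicates 1 to 3 (adjusted p = 0.197) and -0.39 within replicates 4 to 6 (0.0855). This is the level of its mRNA; the p53 protein was not measured. Foxo3, a forkhead factor that interacts with p53, rose by 1.81 ± 0.156 (adjusted p = 3.96e-08), from 12.4 to 22.9 CPM with vehicle to 43.8 to 82.8 CPM with MitoCDNB. Trp53bp2 (ASPP2, a p53-binding protein that favours apoptosis) rose by 0.36, Kat5 (an acetyltransferase) rose by 0.29, and Ppp1r13l (iASPP, an inhibitory relative of ASPP2) fell by 0.53 on the log2 scale. The last 3 calls were lost in 11, 9 and 8 of the 12 single omissions, with adjusted p up to 0.117, 0.118 and 0.0893. Among those omissions Trp53bp2 passed only without 1 h vehicle replicate 6. Foxo3 passed within both sets of 3 replicates (log2 1.85 and 1.78), Trp53bp2 passed within replicates 1 to 3, and Kat5 and Ppp1r13l passed in neither.

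At 4 h edgeR called 0 of these 27, against 0.824% of all tested genes in either direction, and DESeq2 and limma-voom called 0. With no adjustment, 5 had a p under 0.05 (edgeR), a cut for which the share of all tested genes was not computed. The Trp53 log2 difference at 4 h was 0.05 (95% interval -0.13 to 0.24). The interaction called 1 of the 27, Foxo3 (-1.61, adjusted p = 7.91e-05), against 1.69% of all tested genes called lower. Between the times in MitoCDNB livers 3 were higher at 4 h (Trp53, 0.52; Mapk14, 0.59; Nucks1, 0.45) and 5 were lower (Foxo3, -2.25; Trp53bp2, -0.31; Trp53bp1, -0.23; Rfwd2, -0.20; Rpl5, -0.17). The shares over all tested genes were 15.1% higher and 13.4% lower. Single omissions called 4 to 8 of the 27 in this comparison. Without a count filter 3 were called higher and 2 lower, of 30 tested. In vehicle livers 2 were lower at 4 h, Foxo3 (-0.64) and Prkdc (-0.39), where 2.46% of all tested genes were called lower. In that comparison single omissions called 1 to 2. At an adjusted p under 0.01, or with a term for 1 h replicates 4 to 6, 0 were called.

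Of 59 other known targets of p53, 55 were tested; at 1 h 7 rose and 48 did not pass the test. Their median log2 fold change was 0.09, against 0.00 for all tested genes. The shares over all tested genes were 2.7% higher and 3.87% lower. Btg2, an antiproliferative gene that is also an immediate early gene, rose 10.3-fold, from 3.38 to 21.7 CPM with vehicle to 71.0 to 135 CPM with MitoCDNB (log2 3.37 ± 0.504, adjusted p = 0.000186, edgeR). The Btg2 value was 2.73 (adjusted p = 0.0692) within replicates 1 to 3 and 4.43 (adjusted p = 0.00519) within replicates 4 to 6. Ddit4, an inhibitor of mTORC1, rose by 2.70 and Gadd45a, a growth arrest and stress gene, by 2.01 on the log2 scale. Gdf15, a secreted stress cytokine, rose by 1.98, Epha2, a receptor tyrosine kinase, by 1.43, Rb1, the retinoblastoma gene, by 0.54, and Btg1, a relative of Btg2, by 0.51. The Gdf15 call (adjusted p = 0.0409) held in 3 of the 12 single omissions, without 1 h vehicle replicate 1 or 1 h MitoCDNB replicates 1 or 5. The other 6 kept their calls in every single omission. Ddit4, Gadd45a and Epha2 passed within both sets of 3 replicates, Btg1 passed within replicates 4 to 6, and Rb1 and Gdf15 passed in neither.

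Cdkn1a, the p21 cell cycle inhibitor and the best known p53 target, lay between 3.54 and 18.2 CPM with vehicle at 1 h (median 5.93) and between 15.6 and 36.1 CPM with MitoCDNB (median 29.6). The log2 difference of 1.84 ± 0.834 did not pass the test (adjusted p = 0.245, edgeR). It passed with limma-voom (0.00657), in a fit of the 1 h groups alone (0.0159) and within replicates 4 to 6 (0.0206). At 4 h the log2 difference was 1.64 (adjusted p = 0.381). The highest vehicle library was at 50.1 CPM, against a group median of 2.02, and the highest MitoCDNB library was at 111 CPM, against a median of 16.1. These are the libraries that stood apart, and the 4 h value of Cdkn1a moved with them in both directions: it was 0.66 (adjusted p = 0.787) without 4 h MitoCDNB replicate 2, 3.74 (adjusted p = 0.00564) without 4 h vehicle replicate 1, and 2.77 (adjusted p = 0.00462) without both. At 4 h edgeR called 0 of the 55 in all, against 0.824% of all tested genes in either direction. With no adjustment, 10 had a p under 0.05 (edgeR), a cut for which the share of all tested genes was not computed. DESeq2 called 1 and limma-voom 0. The interaction called 3, all lower at 4 h: Btg2 (-4.36), Gadd45a (-2.51) and Rb1 (-0.86), against 1.69% of all tested genes called lower. Between the times in MitoCDNB livers 6 of the 55 were higher at 4 h and 16 lower, against 15.1% and 13.4% of all tested genes. Vehicle livers also differed between the times, with 2 higher at 4 h and 4 lower, against 2.99% and 2.46% of all tested genes.

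**Figure D3:**
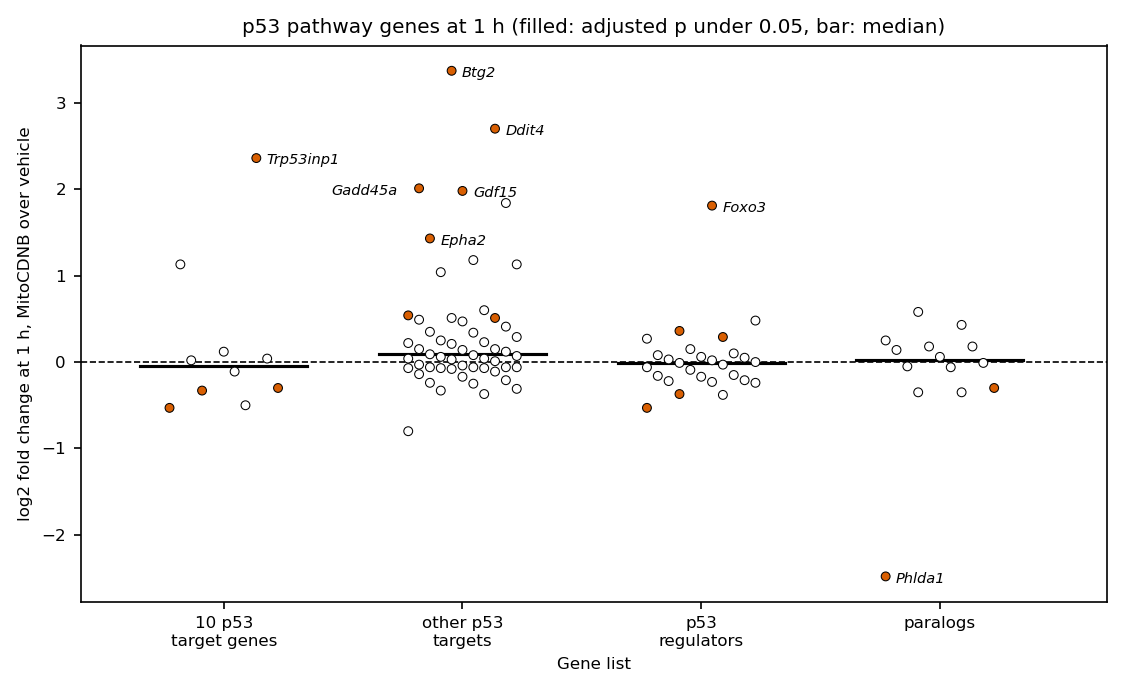
Log2 fold change of MitoCDNB over vehicle at 1 h (y axis) for every tested gene of 4 lists (x axis), each point a gene, filled where called at an adjusted p under 0.05, with the list's median as a bar; called genes beyond 0.6 in size are named. Medians lie between -0.04 and 0.09, and called genes above 1.4 are Trp53inp1, Foxo3 and 5 of the other p53 targets, whereas Phlda1 lies at -2.48.

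Of 17 paralogs of the 10 genes, 14 were tested, and at 1 h 2 fell and 12 did not pass the test. The shares over all tested genes were 2.7% higher and 3.87% lower. Phlda1, a relative of Phlda3, ranged from 26.0 to 220 CPM with vehicle (median 63.9) and from 7.55 to 44.9 CPM with MitoCDNB (median 10.6), and fell by 2.48 ± 0.632 on the log2 scale (adjusted p = 0.0197, edgeR). The value depended on the libraries: it was -3.60 (adjusted p = 0.0228) within replicates 1 to 3, -0.65 (adjusted p = 0.781) within replicates 4 to 6, -3.11 (adjusted p = 0.00497) without 1 h MitoCDNB replicate 4 and -1.98 (adjusted p = 0.0642) without 1 h vehicle replicate 2. The Phlda1 call was also lost with a term for replicates 4 to 6 (0.0717) and in a fit of the 1 h groups alone (0.0578). Rexo4, an exonuclease related to Aen, fell by 0.30 (adjusted p = 0.0228), a call lost without 1 h vehicle replicates 5 or 6 or 1 h MitoCDNB replicate 6 (0.0676, 0.0569 and 0.0624) and within either set of 3 replicates (0.442 and 0.0777). At 4 h edgeR called 0 of the 14, against 0.824% of all tested genes in either direction, and DESeq2 and limma-voom called 0. With no adjustment, 2 had a p under 0.05 (edgeR), a cut for which the share of all tested genes was not computed. The interaction called Rexo4 (0.41, adjusted p = 0.0357), against 2.38% of all tested genes called higher. Between the times in MitoCDNB livers Phlda1 (2.43) and Rexo4 (0.22) were higher at 4 h, and Ccni, a relative of Ccng1, was lower (-0.22). The shares over all tested genes were 15.1% higher and 13.4% lower. With a term for 1 h replicates 4 to 6, 0 paralogs were called higher and 2 lower in this comparison. Single omissions called 2 to 5.

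The genes whose levels followed each called gene most closely were read from 11220 genes over the 24 libraries, by Pearson's r of log2 CPM, as a description. These libraries share the 4 groups, so a common difference between groups is part of each r. For Trp53inp1 they were Tnfrsf1b (r = 0.978) and Sgk1 (0.974), which had log2 values of 1.18 and 1.70 at 1 h. For Zmat3 they were Fam60a (0.902) and Lrig3 (0.862), at -1.39 and -0.81. For Aen they were Traf3ip1 (0.916) and Chchd4 (0.895), at -0.46 and -0.22. The closest to Ccng1 were less close, Ubn2 (0.677) and Fastkd5 (0.662), at -0.40 and -0.46.

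Markers of other cells were set beside the 1 h result. The 3 neutrophil markers (S100a8, S100a9 and Retnlg) summed to 1.62 to 5.71 CPM in vehicle livers and 6.79 to 10.7 CPM with MitoCDNB, with no overlap and none at 0. Marker sums do not give how much RNA of the p53 target genes neutrophils held. Their part in the 1 h differences of the p53 target genes was not tested. Markers of hepatocytes, endothelial cells, Kupffer cells, stellate cells, cholangiocytes, B and T cells and proliferating cells overlapped between the 1 h groups.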

How the data were processed

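Polyadenylated RNA of mouse liver was sequenced from 24 libraries in 4 groups of 6. The table the authors deposited holds raw counts per gene and library, which are whole numbers with a different total in each library (25132737 to 37231025). The submitters' processing notes list build mm10 and, with no roles, the tools HISAT2, Trim Galore, DESeq2 and CASAVA 1.8.4. The counting tool, annotation and strand setting were not given in the sources used here. Of the 24421 genes, 4653 were without counts throughout.

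Low genes were removed with filterByExpr (minimum count 10, minimum total 15), which left 13833 and removed 0.0306% of counts. Counts were scaled by TMM, and all groups were fitted in 1 model with edgeR 4.0.16 in R 4.3.3 (robust quasi-likelihood F test, Benjamini-Hochberg adjustment over all tested genes, threshold 0.05), after a check on simulated data. The common biological coefficient of variation was 0.179. The SE is the log2 fold change over the square root of F. Levels are CPM on the scaled library sizes, and RPKM divides these by the merged exon length of GENCODE (GRCm38). No 2 libraries of a group agreed within counting noise (lowest chi-square per degree of freedom 15.3 over 60 pairs).

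The 10 genes, the lists of p53 regulators, other targets, paralogs and markers, and the tests were chosen with earlier results of these data known. The text names all 10 genes, each called regulator and paralog, up to 8 called other targets per treatment comparison by smallest p, Trp53 and Cdkn1a, and the 2 genes most correlated with each gene called in a treatment comparison. Alternatives were other size factors, filters, tools (DESeq2 1.42.0, limma 3.58.1), thresholds, groups in the fit, a replicate block, a term for or a split by 1 h replicates 4 to 6, and omission of libraries.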

Additional observations from a re-analysis of the deposited data

Results flagged for a closer look

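Trp53inp1 in 4 h MitoCDNB replicate 2, at 87.1 CPM, lay far above the other 5 libraries of its group, which were between 14.2 and 19.3 CPM. It was the 1 group with such a library among 40 groups of 6 examined for the 10 genes, and chance alone gives about 1 in 20.

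The effect of MitoCDNB differed between 1 h and 4 h for 3 of the 10 genes by edgeR's interaction test: for Trp53inp1 by -2.59 on the log2 scale, for Zmat3 by 0.69 and for Aen by 0.50.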

How the results depend on the processing

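Among single-gene values recomputed under the alternatives, 1692 of 1903 kept their direction and their side of the threshold, 136 lost a call, 22 gained one and 53 changed sign, none of which was called in either fit. The cause of each change was not tested, except that a stricter threshold cannot call more genes, by construction. Fits with fewer libraries called fewer genes in some comparisons and more in others. The share of all tested genes called in each alternative fit is not given here. Counts from different fits therefore cannot be read as results particular to the listed genes. Of the 10 p53 target genes, 4 were called at 1 h, but 2 at an adjusted p under 0.01 and 2 to 4 under single omissions. Within replicates 1 to 3, 0 were called, and within replicates 4 to 6, 2 were. Those 2 were Trp53inp1 and Plk3, and Plk3 was not among the 4. Zmat3, Aen and Ccng1 were called in neither set. The interaction called 3, but 1 at an adjusted p under 0.01 and 2 to 4 under single omissions. In vehicle livers between the times 1 was called, against 0, with limma-voom and without the 4 h libraries that stood apart.

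Among regulators, 5 were called at 1 h, but 1 at an adjusted p under 0.01, 3 without a count filter, 2 within replicates 1 to 3, 1 within replicates 4 to 6 and 2 to 4 under single omissions. At 4 h 0 were called, but 1 without the libraries that stood apart and 0 to 3 under single omissions. The interaction called 1, but 2 with DESeq2, 3 with limma-voom, 3 without the libraries that stood apart and 1 to 3 under single omissions. Among other targets, 7 were called at 1 h, all higher, but 11 with limma-voom, 3 within replicates 1 to 3 and 6 to 9 under single omissions. Within replicates 4 to 6, 8 were called, 7 higher and 1 lower. At 4 h 0 were called, but 1 with DESeq2, 2 without the libraries that stood apart and 0 to 3 under single omissions. The interaction called 3, but 6 with limma-voom, 6 without the libraries that stood apart and 3 to 5 under single omissions. Among paralogs, 2 were called at 1 h, but 0 at an adjusted p under 0.01, 4 with limma-voom, 1 with a term for replicates 4 to 6, 1 within replicates 1 to 3, 0 within replicates 4 to 6 and 1 to 2 under single omissions. The interaction called 1 paralog, but 0 at an adjusted p under 0.01, 0 with the replicate block and 0 to 1 under single omissions.

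With the replicate block, 3 of the 10 genes were called at 1 h, 0 at 4 h and 2 in the interaction. The labels state no pairing, correlations of same-numbered libraries within a time ran from -0.21 to 0.26, and not every library correlated best with its own number.

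Signs of small log2 values changed as follows. With limma-voom, Plk2 at 1 h was at -0.0044, Eda2r at 4 h at 0.10, the interaction of Perp at 0.06 and of Cdkn1a at 0.45, and Mdm2 and Plk3 between the vehicle times at 0.03 and 0.56. With the replicate block, the interaction of Cdkn1a was 0.69 and Plk3 between the vehicle times 0.13. With a term for 1 h replicates 4 to 6, Perp was at 0.03 between the vehicle times and at 0.006 between the MitoCDNB times. At 1 h Plk2 was at -0.04 within replicates 1 to 3 and Perp at -0.08 within replicates 4 to 6. Without the libraries that stood apart, the interaction was 0.01 for Perp and 0.92 for Cdkn1a. Under single omissions the log2 values at 1 h ran from -0.27 to 0.04 for Phlda3, -0.04 to 0.07 for Perp and -0.18 to 0.13 for Plk2. At 4 h they ran from -0.95 to 0.0015 for Trp53inp1, -0.19 to 0.18 for Eda2r, -0.03 to 0.04 for Perp and -0.0042 to 0.10 for Trp53. The interaction ran from -0.06 to 0.05 for Perp and -1.18 to 1.90 for Cdkn1a. Between the vehicle times the values ran from -0.08 to 0.02 for Mdm2, -0.12 to 0.11 for Plk2 and -0.22 to 0.34 for Plk3, and between the MitoCDNB times from -0.19 to 0.37 for Eda2r. Among the 10 genes the fewest counts, and so the largest relative counting error, were those of Eda2r and Phlda3, with at most 23 and 39 a library.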
